A study of Rattus norvegicus with 9 samples.

Results

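The genes described here were 41 genes of the actin cytoskeleton and of serum response factor (SRF), the transcription factor that controls many of them. They were chosen by name, with earlier results of these data known. The list held the Srf gene itself, actins, actin crosslinkers, transgelins, calponins, tropomyosins, myosins, focal adhesion proteins and LIM domain proteins. Of the 41 genes, 38 had a probe set annotated to exactly 1 gene, out of 14213 genes measured in that way. Actb, Myl6 and Cfl1 had only probe sets shared with related genes and could not be measured singly. Expression was measured on Affymetrix rat arrays in primary Schwann cells prepared from rat sciatic nerve. The design had 3 groups of 3 independent biological replicates, 1 array each, and RNA was collected from every culture 48 hours after transfection. NF1 RNAi + U0126 cells received oligonucleotides against Nf1 together with U0126, an inhibitor of the kinase MEK (spelled UO126 in the sample labels). NF1 RNAi cells received the same type of oligonucleotide without the inhibitor, and Control RNAi cells received scrambled oligonucleotides. All cells were thus transiently transfected, and control cells given the inhibitor were not analysed here.

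Neurofibromin, the product of Nf1, switches Ras off, and Ras activates the kinase cascade of RAF, MEK and ERK. SRF binds a DNA element called the CArG box and works with either of 2 families of partner. The ternary complex factors (Elk1, Elk3 and Elk4) are activated by ERK, while the myocardin-related factors (Mrtfa and Mrtfb) bind actin monomers and enter the nucleus when actin is drawn into filaments. Actin genes are themselves SRF targets, so the pathway links the state of the cytoskeleton to its own supply. In Schwann cells, actin filaments and myosin shape the processes that sort and wrap axons.

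An exact CArG box was found within the promoter window of 6 of the 36 members that had a RefSeq promoter (16.7%), against 1.77% of 27457 genes. The members were listed as SRF targets and actin genes, so this share is not independent of how they were chosen. The windows ran from 250 bases before to 50 bases after each start on the GRCr8 assembly, and the CArG pattern is the same on both strands. With 1 mismatch allowed the shares were 38.9% of members and 22.5% of all genes. TATAAA, searched on both strands, was found for 13.9% of members and 15.3% of all genes. The 6 genes were Srf, Actg1, Cnn2, Fhl1, Fhl2 and Lima1, and their boxes are shown because each of these genes passed the test against control cells. Srf is given with the 250 bases before its start, and the others with 60 bases around the box. The capitals mark the CArG boxes, 2 of them in Srf.
Srf, chr9:21923826-21924075 on the plus strand: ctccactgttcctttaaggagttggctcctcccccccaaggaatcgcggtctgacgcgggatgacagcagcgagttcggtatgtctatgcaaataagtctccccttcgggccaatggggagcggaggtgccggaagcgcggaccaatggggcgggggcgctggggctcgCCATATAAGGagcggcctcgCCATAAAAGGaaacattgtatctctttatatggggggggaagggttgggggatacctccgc
Actg1, chr10:106121007-106121066 on the minus strand: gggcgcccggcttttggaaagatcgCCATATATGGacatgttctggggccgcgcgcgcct
Cnn2, chr7:10370349-10370408 on the minus strand: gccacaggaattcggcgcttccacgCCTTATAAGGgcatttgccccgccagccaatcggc
Fhl1, chrX:139638369-139638428 on the plus strand: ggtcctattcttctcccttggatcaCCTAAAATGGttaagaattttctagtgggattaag
Fhl2, first promoter, chr9:52954601-52954660 on the minus strand: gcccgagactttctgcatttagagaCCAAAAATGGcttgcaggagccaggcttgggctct
Fhl2, second promoter, chr9:52923350-52923409 on the minus strand: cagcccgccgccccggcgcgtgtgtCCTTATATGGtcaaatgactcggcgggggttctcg
Lima1, chr7:132880518-132880577 on the minus strand: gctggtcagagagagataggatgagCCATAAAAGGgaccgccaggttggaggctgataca
All 6 of these genes were lower with NF1 RNAi than with Control RNAi, and so were 13 of the 28 measured members whose windows held no exact box. The 28 members without an exact box also held 1 that was higher. Over all genes, 13.3% were lower and 13% higher. The Srf call rests on 1 probe set. With NF1 RNAi + U0126 against NF1 RNAi, none of the 6 was lower and 1 was higher. Of the 28, 8 were lower and 1 was higher, where 7.02% of all genes were lower and 6.71% higher. Whether a box bears on these differences was not tested. A match is a description of the letters in the window and does not show that SRF binds there. Actb, Actn4, Tagln, Myl9 and Capg had no promoter entry.

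The targeted gene served as a check of the labels. Nf1 intensity was 42.5, 51.7 and 40.9 with NF1 RNAi + U0126, 41.1, 41.5 and 42.4 with NF1 RNAi, and 99.3, 95.6 and 70.0 with Control RNAi. Nf1 was lower by 1.05 ± 0.13 on the log2 scale with NF1 RNAi than with Control RNAi (limma adjusted p = 0.000695). Of 8 listed Schwann cell markers 5 were measured, S100b, Sox10, Ngfr, Erbb3 and Gap43, with S100b at 12931 to 12993 with NF1 RNAi + U0126, 16554 to 16975 with NF1 RNAi and 8641 to 10327 with Control RNAi. The others did not share this order. In the same order of groups, Sox10 read 2130.1 to 2435.5, 2632.5 to 2714.5 and 2632.5 to 2829.0. Ngfr read 9697.4 to 10330.2, 7791.2 to 8216.8 and 5110.0 to 8551.2. Erbb3 read 428.9 to 697.0, 996.6 to 1359.5 and 642.4 to 1017.3. Gap43 read 1152.9 to 2917.8, 3536.9 to 6321.4 and 1825.1 to 7237.7. Control RNAi replicate 1 stood apart in genes of dividing cells: the 6 proliferation markers summed to 4909.6 there, while the lowest control array summed to 860.4. That array was also the lowest control array for S100b, Ngfr, Erbb3 and Gap43, though not for Sox10. Gap43 was lowest in replicate 1 of the other groups too. Throughout, values in each array are linear intensities, levels are not compared between genes, and fold changes are log2 differences ± standard error from limma with n = 3 arrays per group. A gene passed at an adjusted p under 0.05 over all genes. The labels call the replicates independent, and the p-values rest on the spread between arrays within groups. Same-numbered arrays of different groups deviated together (r = 0.17 to 0.62), and this fit leaves that shared part in the spread.

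Much of the contractile and adhesive actin machinery fell after NF1 knockdown. With NF1 RNAi against Control RNAi, 21 members fell and 1 rose among the 38 measured (57.9%), where 26.3% of all genes passed (13.3% lower, 13% higher). Because the members were chosen with earlier results known, their share in every comparison is not independent of that choice. The genes with the largest falls were Tagln, Fhl1, Cnn2, Fhl2, Zyx, Actg1 and Flna, which were all lower by at least 2-fold, and Enah was the member that rose. The median log2 fold change of the members was −0.42, against 0.02 for all genes, and 33 of the 38 values lay below 0. The arrays of these groups were fully separate for 68.4% of members, against 41.2% of all genes. Without Control RNAi replicate 1, 23 members passed (60.5%), with 25.4% of all genes. Of the 38 members, 36 reached log2 6 in at least 3 arrays, as did 10159 of all genes. Tested among those brighter genes only, 24 members passed (66.7%), with 37.7% of the genes.

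When U0126 was added to knockdown cells, fewer members passed, and most of those that did moved down. With NF1 RNAi + U0126 against NF1 RNAi, 8 members fell and 2 rose (26.3%), where 13.7% of all genes passed (7.02% lower, 6.71% higher). Fhl1 and Tpm1 rose, while Pdlim7, Tagln2, Csrp1, Vcl, Cnn3, Pdlim5, Vasp and Tln1 fell. The median of the members was −0.12, against 0.02 for all genes, and the arrays of these groups were separate for 19 of the 38 members and for 33.9% of all genes. Without NF1 RNAi replicate 2 or NF1 RNAi + U0126 replicate 2, 5 members passed (13.2%), with 7.81% and 8.63% of all genes. With the replicate number as a block 17 members passed (44.7%), 12 lower and 5 higher, with 19.6% of all genes. Among the genes that reached log2 6 in at least 3 arrays, 11 of 36 members passed (30.6%), with 20.7% of the genes. The 5 members that kept the call when any single array was left out were Pdlim7, Tagln2, Csrp1, Vcl and Cnn3.

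Cells with both treatments had lower levels of most members than control cells. With NF1 RNAi + U0126 against Control RNAi, 24 members fell and none rose (63.2%), where 35.5% of all genes passed (17.6% lower, 17.9% higher). The falls were −2.70 for Tagln, −1.17 for Tagln2, −1.19 for Cnn2 and −0.89 for Cnn3 among the filament-binding genes, and −0.63 for Srf. Among crosslinkers, myosins and adhesion genes they were −1.34 for Flna, −0.55 for Myh9, −0.62 for Myh10, −1.29 for Zyx, −1.06 for Vcl and −0.85 for Vasp. Among LIM domain genes they were −1.38 for Fhl2, −0.91 for Pdlim5 and −1.63 for Pdlim7, and the other passing members are given with their families. In all, 10 were lower by at least 2-fold, and the median was −0.57, against 0.04 for all genes. Arrays were separate for 65.8% of members, against 47.2% of all genes. Among the genes that reached log2 6 in at least 3 arrays, 24 of 36 members passed (66.7%), with 48.4% of the genes. The comparisons share arrays, so their fold changes are given side by side and are not independent of one another. In bulk RNA, fewer cells of a type and less RNA per cell cannot be told apart.

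**Figure D1:**
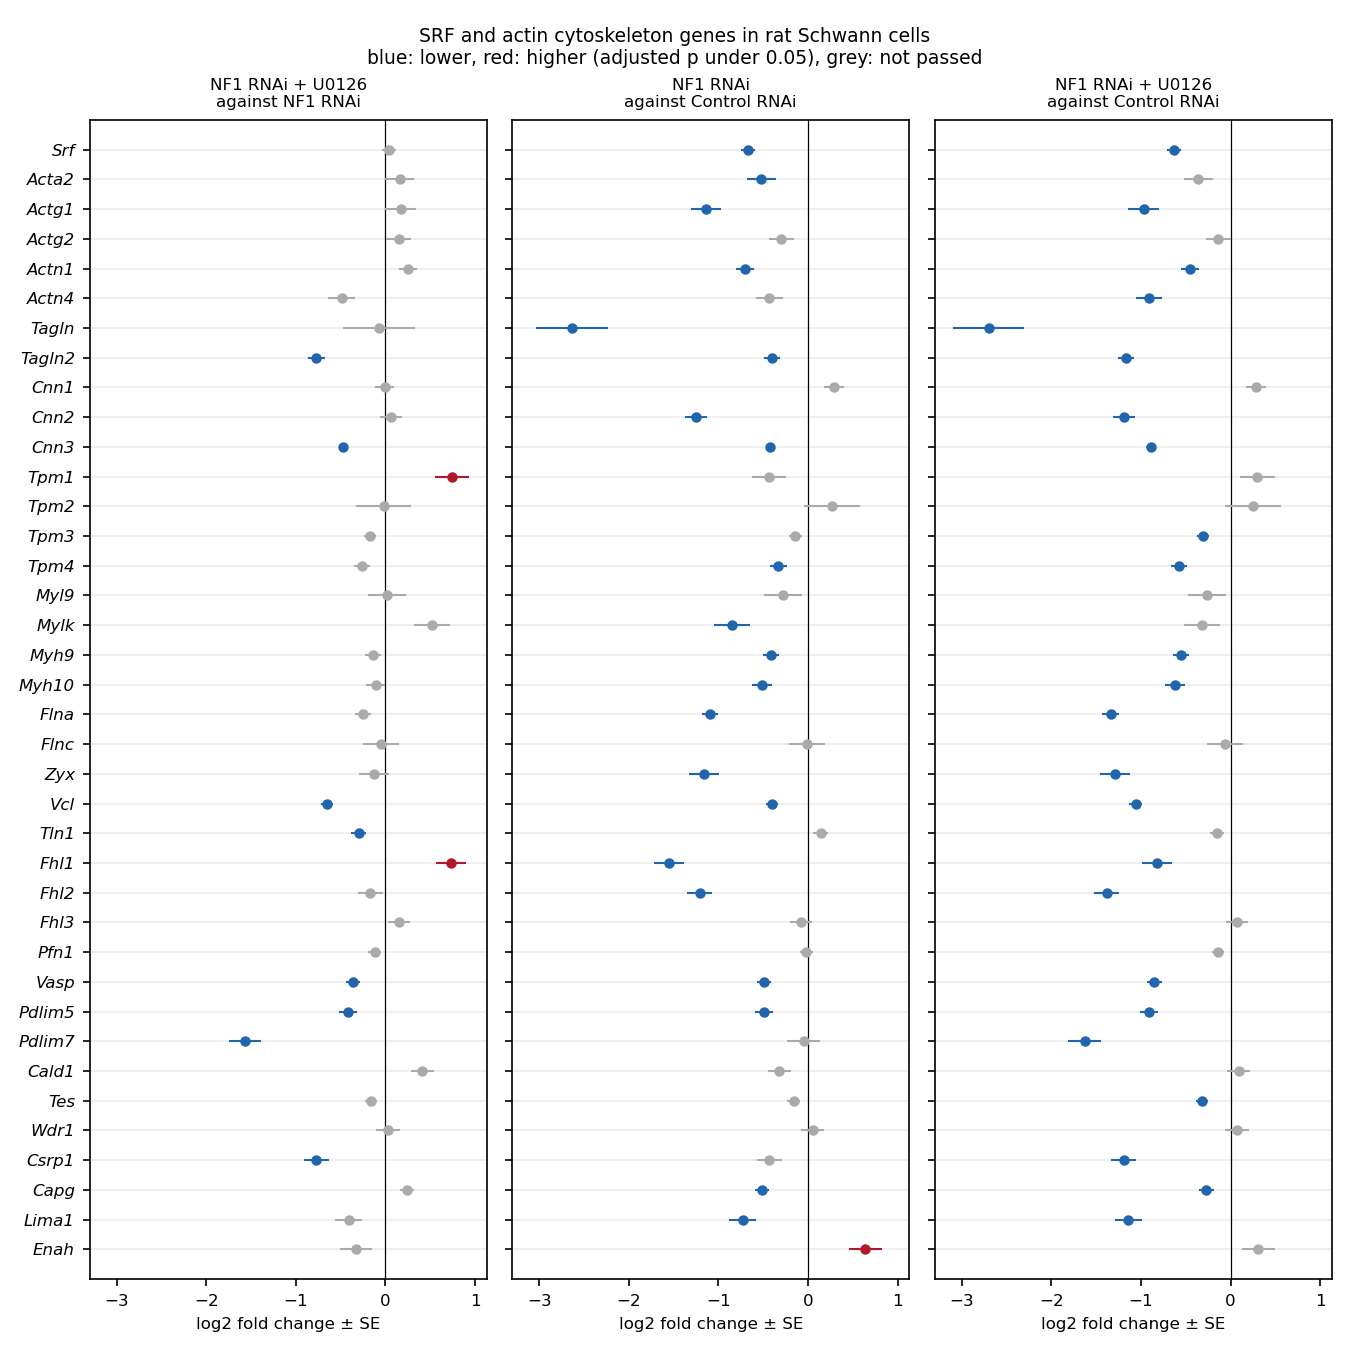
Log2 fold change ± standard error of each of the 38 measured members (rows) in the 3 comparisons (panels), with members lower at an adjusted p under 0.05 in blue, higher in red and others in grey. Most points lie left of 0 in both comparisons with control cells, with Tagln farthest out at −2.63 and −2.70, while the points of NF1 RNAi + U0126 against NF1 RNAi lie on both sides of 0.

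**Figure D2:**
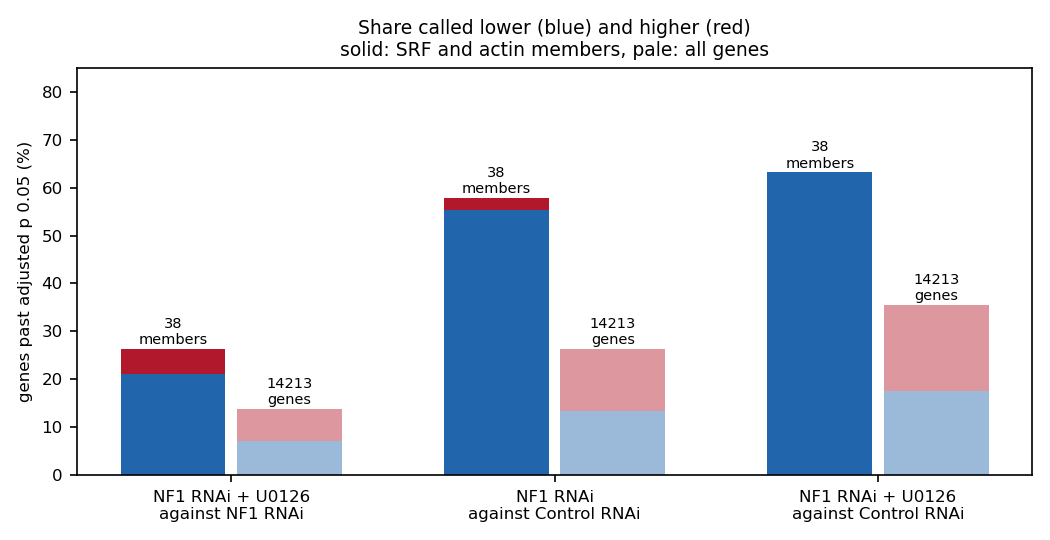
Percentage of the 38 members and of all 14213 genes that passed as lower and as higher in each comparison. The members' share of lower genes was 55.3% for NF1 RNAi against Control RNAi, against 13.3% of all genes, and their share of higher genes was 2.63%, against 13%. The members were chosen with earlier results of these data known.

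Srf itself was lower after NF1 knockdown on its brightest probe set. Its intensity was 367, 396 and 438 with NF1 RNAi + U0126, 372, 401 and 389 with NF1 RNAi, and 569.5, 648.5 and 634 with Control RNAi. The control arrays lay above all 6 arrays with NF1 oligonucleotides, which overlapped one another. Srf fell by 0.67 ± 0.08 with NF1 RNAi (adjusted p = 0.000515). With U0126 it differed from NF1 RNAi cells by 0.04 (95% interval −0.14 to 0.23, adjusted p = 0.787). The other Srf probe sets did not show the difference. The first had intensities of 138, 132 and 131 with NF1 RNAi + U0126, 131, 132 and 127 with NF1 RNAi, and 142, 131 and 110.2 with Control RNAi, a log2 difference of 0.03 between NF1 RNAi and control cells. The second lay between 25.7 and 36.3 in every array, near the low end of the array, and differed by 0.16. Taking the mean of the 3 probe sets, Srf differed by −0.16 between NF1 RNAi and Control RNAi (adjusted p = 0.104), so its call rests on 1 probe set.

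Among the actins, cytoplasmic gamma-actin (Actg1), a main component of the filaments of non-muscle cells, showed the clearest difference. Its intensity was 8552, 10877 and 10794 with NF1 RNAi + U0126, 6671, 10639.9 and 9893 with NF1 RNAi, and 19236, 19564 and 20056 with Control RNAi. Every control array was far above every array with NF1 oligonucleotides. Actg1 fell by 1.14 ± 0.17 in NF1 RNAi cells (adjusted p = 0.00133) and was 0.97 ± 0.17 lower than in control cells with U0126 as well (adjusted p = 0.00189). A second Actg1 probe set was lower by 1.38 with NF1 RNAi. Beta-actin (Actb) could not be measured singly. The brighter probe set shared by Actb, Actg1 and a related locus read 13669.6, 14481 and 14367 with NF1 RNAi + U0126, 15477, 16564 and 16301 with NF1 RNAi, and 17332, 18081 and 18462 with Control RNAi. Its groups did not overlap, and the control arrays were highest. The manufacturer's beta-actin control probe sets, left out of the tests, differed in the same direction, by −0.46 to −0.27 with NF1 RNAi against control.

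The muscle actins showed smaller differences. Acta2, smooth muscle alpha-actin, had intensities of 330.4, 271 and 217 with NF1 RNAi + U0126, 252, 233 and 239 with NF1 RNAi, and 410.2, 354 and 285 with Control RNAi. The NF1 RNAi arrays lay below the control arrays, and the arrays with U0126 overlapped both. Acta2 fell by 0.52 ± 0.16 with NF1 RNAi (adjusted p = 0.0456). That call was lost without Control RNAi replicate 1 or 2, any NF1 RNAi array or NF1 RNAi + U0126 replicate 2 (adjusted p = 0.0703 to 0.123), and with quantile normalization (adjusted p = 0.0648) or median centring (0.0521). With both treatments against control it differed by −0.36 (adjusted p = 0.119), which passed with the replicate block (adjusted p = 0.0248) and without Control RNAi replicate 3 (0.0455) or NF1 RNAi + U0126 replicate 1 (0.0363). Actg2, smooth muscle gamma-actin, lay between 43.5 and 77.2 in every array and did not pass.

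Transgelin and the calponins bind along actin filaments, and both families held members that fell strongly. Tagln, a widely used smooth muscle marker and SRF target, had intensities of 798, 444 and 335.5 with NF1 RNAi + U0126, 753, 528 and 346 with NF1 RNAi, and 4981, 2907 and 2255.5 with Control RNAi. The lowest control array was far above the highest array of the other groups, and within each group replicate 1 was highest and replicate 3 lowest. Tagln fell by 2.63 ± 0.40 in NF1 RNAi cells (adjusted p = 0.00168) and with U0126 it differed from NF1 RNAi cells by −0.07 (95% interval −0.98 to 0.84, adjusted p = 0.942). Its relative Tagln2 read 2595, 3288.5 and 3087 with NF1 RNAi + U0126, 4764, 5427 and 5051 with NF1 RNAi, and 6951, 6711 and 6409 with Control RNAi. The 3 groups did not overlap, with NF1 RNAi + U0126 lowest and control highest. Tagln2 was lower by 0.40 ± 0.09 in NF1 RNAi cells (adjusted p = 0.013, and 0.0503 without NF1 RNAi replicate 1) and by a further 0.77 ± 0.09 with U0126 (adjusted p = 0.001).

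Cnn2 was the calponin that fell most. It read 934, 890.5 and 731 with NF1 RNAi + U0126, 802, 853 and 783 with NF1 RNAi, and 2113, 2085 and 1644.5 with Control RNAi. The arrays with NF1 oligonucleotides overlapped one another and lay far below control. Cnn2 fell by 1.25 ± 0.12 in NF1 RNAi cells (adjusted p = 0.000158) and differed by 0.06 between NF1 RNAi + U0126 and NF1 RNAi (95% interval −0.21 to 0.33). Cnn3 was lower in each of these comparisons, with intensities of 3061, 3009 and 2832 with NF1 RNAi + U0126, 4096, 4096 and 4106 with NF1 RNAi, and 5520.1, 5553 and 5366 with Control RNAi. It fell by 0.42 ± 0.05 in NF1 RNAi cells (adjusted p = 0.000648) and by 0.47 ± 0.05 when U0126 was added (adjusted p = 0.000728). Cnn1, the smooth muscle calponin, lay between 34.5 and 56.3 in every array, near the low end, and passed in no comparison. With the replicate number as a block it passed as higher with NF1 RNAi (0.29, adjusted p = 0.0333) and with both treatments (0.28, adjusted p = 0.0313) against control, the second also without Control RNAi replicate 1 (0.0478) or NF1 RNAi replicate 1 (0.0484).

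**Figure D3:**
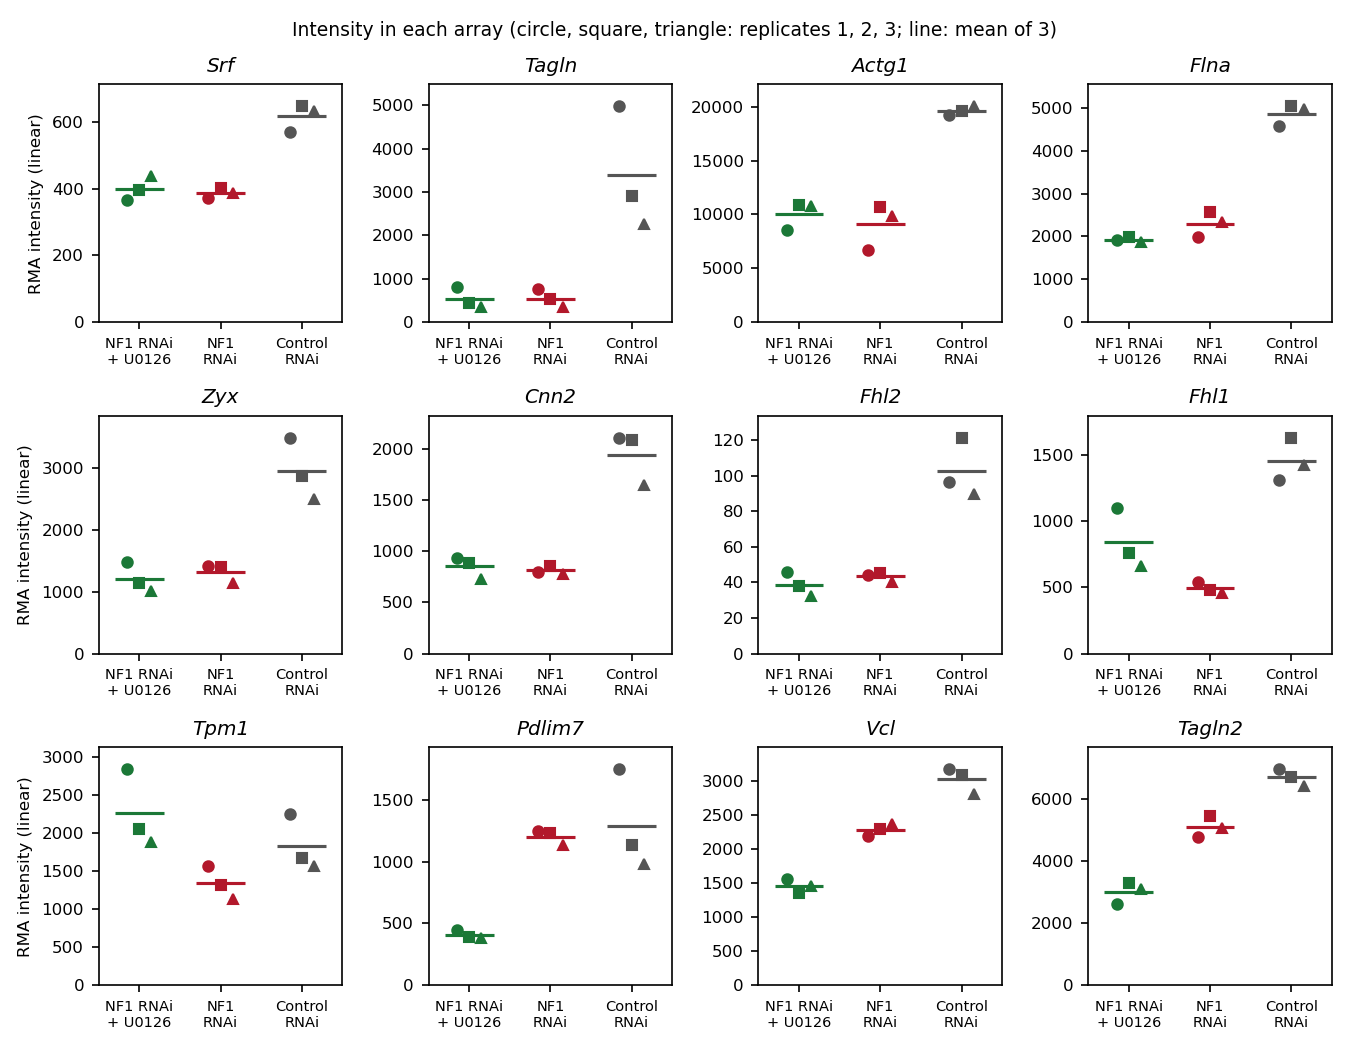
RMA intensity (linear axis from 0) of 12 members in each array, with circles, squares and triangles for replicates 1, 2 and 3 and a line at the mean of 3 arrays. Tagln, Actg1, Zyx, Cnn2 and Fhl2 were low in all arrays with NF1 oligonucleotides, and Fhl1 lay between with U0126. On its brightest probe set, Pdlim7 was low with NF1 RNAi + U0126 alone of the 3 groups.

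The filamins and actinins crosslink filaments into networks and bundles. Flna read 1911, 1976 and 1869 with NF1 RNAi + U0126, 1995, 2572 and 2325 with NF1 RNAi, and 4585, 5042 and 4968 with Control RNAi. Its control arrays were separate from both other groups, and Flna fell by 1.09 ± 0.09 with NF1 RNAi (adjusted p = 8.78e-05). The further difference with U0126 was −0.25 ± 0.09 and did not pass (adjusted p = 0.108), although it did with the replicate block (adjusted p = 0.0496) and without NF1 RNAi replicate 1 (0.0251). Flnc, the muscle filamin, was between 2522 and 4389 in every array and passed in no comparison, with a difference of −0.01 ± 0.20 between NF1 RNAi and Control RNAi. Without the replicate 1 arrays of all groups it passed as lower with both treatments against control (−0.42, adjusted p = 0.00331).

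Actn1 read 838, 901 and 924 with NF1 RNAi + U0126, 803, 774 and 666 with NF1 RNAi, and 1354, 1159 and 1124 with Control RNAi. It fell by 0.70 ± 0.10 in NF1 RNAi cells (adjusted p = 0.000983) and was 0.45 ± 0.10 lower than control with both treatments (adjusted p = 0.00599). Actn4 read 1436, 1473 and 1506 with NF1 RNAi + U0126, 2043, 2094 and 2054.5 with NF1 RNAi, and 3689.8, 2446 and 2367.5 with Control RNAi. Its groups did not overlap, in the order NF1 RNAi + U0126, NF1 RNAi and Control RNAi from low to high. Actn4 was lower than control with both treatments (−0.91 ± 0.15, adjusted p = 0.00128), while its differences with NF1 RNAi against control (−0.43, adjusted p = 0.0614) and with U0126 against NF1 RNAi (−0.49, adjusted p = 0.0592) did not pass. Without Control RNAi replicate 1, its highest array, both passed, at −0.22 (adjusted p = 0.0226) and −0.49 (adjusted p = 0.0005).

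Tropomyosins run along the filament and set which proteins can bind it. Tpm1 was, with Fhl1, a member that rose with U0126, with intensities of 2835, 2047.5 and 1883.5 with NF1 RNAi + U0126, 1564, 1313 and 1135 with NF1 RNAi, and 2242, 1662 and 1563 with Control RNAi. The arrays with U0126 lay above the NF1 RNAi arrays and overlapped control. Tpm1 rose by 0.74 ± 0.19 with NF1 RNAi + U0126 against NF1 RNAi (adjusted p = 0.0326), a call that was lost without Control RNAi replicate 2, NF1 RNAi replicate 2 or 3, or NF1 RNAi + U0126 replicate 1 or 2 (adjusted p = 0.0503 to 0.111). Between NF1 RNAi and Control RNAi it differed by −0.44 ± 0.19 (adjusted p = 0.129), which passed with the replicate block (adjusted p = 0.00159), as did the 0.30 between both treatments and control (adjusted p = 0.253, and 0.00597 with the block). Its other probe sets of mean log2 intensity 7 or more differed by −0.36, 0.10, −0.03 and −0.19 between NF1 RNAi and control, and none passed. With U0126 against NF1 RNAi they differed by 0.68, 0.47, 0.33 and 1.02, and those at 0.68 and 1.02 passed (adjusted p = 0.0097 and 0.00687). With both treatments against control they were at 0.32, 0.57, 0.30 and 0.82, and those at 0.57 and 0.82 passed (adjusted p = 0.0168 and 0.00698). With the mean of its probe sets Tpm1 passed as higher with both treatments than in control cells (0.40, adjusted p = 0.0265).

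Tpm4 read 5744, 6431 and 6375 with NF1 RNAi + U0126, 6676, 7872.5 and 7629 with NF1 RNAi, and 8381.5, 9577 and 9836 with Control RNAi. It was lower by 0.33 ± 0.09 in NF1 RNAi cells (adjusted p = 0.0264, and 0.0512 to 0.0896 without Control RNAi replicate 2 or 3 or NF1 RNAi replicate 1 or 3) and by 0.58 ± 0.09 with both treatments against control (adjusted p = 0.00106). The difference of −0.26 with U0126 against NF1 RNAi did not pass (adjusted p = 0.0993), but did with the replicate block (adjusted p = 0.0141), with array weights (0.026) and without the replicate 1 arrays of all groups (0.0247). Tpm3 read 2698, 3186 and 3112 with NF1 RNAi + U0126, 3250.2, 3487 and 3366 with NF1 RNAi, and 3705, 3599 and 3860.4 with Control RNAi. It was lower only in the comparison of both treatments with control, by 0.31 ± 0.07 (adjusted p = 0.0095), and not with the mean of its probe sets (adjusted p = 0.33). Tpm2 read 250.4, 171 and 112 with NF1 RNAi + U0126, 240.0, 165 and 127 with NF1 RNAi, and 151, 163 and 115 with Control RNAi. Its groups overlapped, and it passed nowhere. Cald1, caldesmon, which binds tropomyosin-bearing filaments, had a difference of −0.32 ± 0.13 with NF1 RNAi against control and of 0.41 ± 0.13 when U0126 was added. Neither passed (adjusted p = 0.116 and 0.0802), and both did with the replicate block (adjusted p = 0.0216 and 0.0136), the second also without Control RNAi replicate 1 (0.0141). The second passed as well with only those groups in the fit (0.0296), with array weights (0.0252) and with the mean of the probe sets (0.0329). The next brightest Cald1 probe set passed in both comparisons, at −0.35 (adjusted p = 0.0332) and 0.53 (adjusted p = 0.0093).

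Both non-muscle myosin heavy chains, which pull on actin filaments, fell with NF1 RNAi. Myh9 read 1939, 1831 and 1545 with NF1 RNAi + U0126, 1996, 2029 and 1798 with NF1 RNAi, and 2650.2, 2538 and 2566 with Control RNAi, and it fell by 0.41 ± 0.09 with NF1 RNAi (adjusted p = 0.00897). Myh10 read 790.0, 975 and 970.1 with NF1 RNAi + U0126, 978, 1015 and 953 with NF1 RNAi, and 1611, 1341 and 1255 with Control RNAi, and it fell by 0.51 ± 0.11 (adjusted p = 0.00939). For both genes the control arrays lay above all others, and U0126 made no difference that passed (−0.14 and −0.11). Mylk, the kinase that activates myosin through its light chain, read 140.3, 116 and 101 with NF1 RNAi + U0126, 107, 75.9 and 67.3 with NF1 RNAi, and 177, 150.2 and 121 with Control RNAi. It was lower by 0.85 ± 0.20 in NF1 RNAi cells (adjusted p = 0.0131, and 0.0502 without NF1 RNAi replicate 2). Its difference of 0.52 ± 0.20 with U0126 against NF1 RNAi did not pass (adjusted p = 0.124) but did with the replicate block (adjusted p = 0.00201) and without NF1 RNAi replicate 1 (0.0432). With the block, so did the −0.32 with both treatments against control (adjusted p = 0.00652). Myl9, a myosin light chain, read 153, 115 and 87.8 with NF1 RNAi + U0126, 133, 119 and 94.5 with NF1 RNAi, and 163, 140.3 and 118 with Control RNAi, with groups that overlapped, and it did not pass. With the replicate block it passed as lower with NF1 RNAi (−0.28, adjusted p = 0.0285) and with both treatments (−0.26, adjusted p = 0.0293) against control. The probe set shared by Myl6, Myl6b and Myl6l read 7912 to 8659 with NF1 RNAi + U0126, 8442 to 8955 with NF1 RNAi and 10284 to 11042 with Control RNAi.

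Focal adhesion proteins tie filaments to integrins at the cell membrane. Zyx, zyxin, which gathers at adhesions under tension, read 1484, 1139.6 and 1019 with NF1 RNAi + U0126, 1409.9, 1407 and 1134 with NF1 RNAi, and 3495, 2868 and 2496 with Control RNAi. It fell by 1.16 ± 0.17 in NF1 RNAi cells (adjusted p = 0.00121) and differed by −0.13 with U0126 against NF1 RNAi (95% interval −0.50 to 0.25). Vcl, vinculin, read 1551, 1347 and 1458 with NF1 RNAi + U0126, 2184, 2288 and 2364 with NF1 RNAi, and 3170.0, 3080.4 and 2803 with Control RNAi. The NF1 RNAi + U0126 arrays were lowest, the NF1 RNAi arrays came next and the control arrays were highest, without overlap. Vcl fell by 0.40 ± 0.07 in NF1 RNAi cells (adjusted p = 0.00417) and by a further 0.65 ± 0.07 with U0126 (adjusted p = 0.000741), and all 3 of its probe sets passed in every comparison. Tln1, talin, which links integrins to actin, passed only as lower with U0126 against NF1 RNAi (−0.30 ± 0.08, adjusted p = 0.0499), a call lost without Control RNAi replicate 2 or 3, NF1 RNAi replicate 1 or 2, or NF1 RNAi + U0126 replicate 2 or 3 (adjusted p = 0.0692 to 0.147), and with median centring (0.0529). Tes, testin, another adhesion protein, read 5595, 6425 and 6172 with NF1 RNAi + U0126, 6736, 6760.4 and 6781 with NF1 RNAi, and 7122, 7979 and 7654 with Control RNAi. It was lower only with both treatments against control (−0.32 ± 0.07, adjusted p = 0.00596).

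LIM domain proteins form another group, bound to filaments and adhesions. Fhl1 read 1100.0, 761 and 657 with NF1 RNAi + U0126, 543, 482 and 457 with NF1 RNAi, and 1310.3, 1629 and 1422 with Control RNAi. The NF1 RNAi + U0126 arrays lay between the NF1 RNAi arrays and the higher control arrays with no overlap. Fhl1 fell by 1.55 ± 0.17 in NF1 RNAi cells (adjusted p = 0.000343) and it rose by 0.73 ± 0.17 with U0126 against NF1 RNAi (adjusted p = 0.0237), a call lost without NF1 RNAi replicate 2 or 3 or NF1 RNAi + U0126 replicate 2 (adjusted p = 0.0838, 0.0824 and 0.0556). With both treatments it was still 0.82 ± 0.17 lower than control (adjusted p = 0.00568). The next brightest Fhl1 probe set rose by 0.76 with U0126 against NF1 RNAi (adjusted p = 0.0205), and the dimmest differed by 0.16. Fhl2 was dim, at 46.0, 38.2 and 32.3 with NF1 RNAi + U0126, 44.4, 45.6 and 40.3 with NF1 RNAi, and 96.7, 122 and 89.8 with Control RNAi. It fell by 1.21 ± 0.14 in NF1 RNAi cells (adjusted p = 0.000438) and U0126 made no difference that passed (−0.17, 95% interval −0.49 to 0.15). Fhl3 read 759.6, 1022.5 and 915 with NF1 RNAi + U0126, 705, 866 and 847 with NF1 RNAi, and 865, 845 and 835 with Control RNAi, with overlapping groups, and did not pass.

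Pdlim7, a PDZ and LIM domain protein of actin filaments, was the member with the largest fall when U0126 was added. It read 447, 387 and 382 with NF1 RNAi + U0126, 1248, 1234 and 1135 with NF1 RNAi, and 1753, 1134 and 984 with Control RNAi. The NF1 RNAi arrays overlapped control and all lay far above the arrays with U0126. Pdlim7 fell by 1.57 ± 0.18 with NF1 RNAi + U0126 against NF1 RNAi (adjusted p = 0.000825), while NF1 RNAi and Control RNAi differed by −0.05 ± 0.18 (adjusted p = 0.871). Its other probe set was lower with NF1 RNAi than with Control RNAi, by 0.81 (adjusted p = 0.00189). That probe set was lower by a further 0.91 with U0126 against NF1 RNAi (adjusted p = 0.00201). Pdlim5 read 135, 116 and 119.8 with NF1 RNAi + U0126, 169, 169 and 156 with NF1 RNAi, and 268, 227 and 206.5 with Control RNAi. It fell by 0.49 ± 0.10 in NF1 RNAi cells (adjusted p = 0.00694) and by 0.42 ± 0.10 with U0126 (adjusted p = 0.0258). The call with U0126 was lost without replicate 1 or 2 of NF1 RNAi or replicate 2 or 3 of NF1 RNAi + U0126 (adjusted p = 0.0766 to 0.0946), and both were lost with the mean of its probe sets (adjusted p = 0.0834 and 0.192).

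Csrp1, a LIM protein that binds alpha-actinin and zyxin, read 2026.5, 1921 and 1929 with NF1 RNAi + U0126, 3080.2, 3531 and 3405 with NF1 RNAi, and 3442, 5149.7 and 5076 with Control RNAi. Control RNAi replicate 1 was close to the NF1 RNAi arrays, and the other control arrays were higher. Csrp1 fell by 0.77 ± 0.14 with U0126 against NF1 RNAi (adjusted p = 0.00805) and was 1.19 ± 0.14 lower with both treatments against control (adjusted p = 0.000251). Between NF1 RNAi and Control RNAi it missed the threshold (−0.43, adjusted p = 0.0557), but it passed when Control RNAi replicate 1 was left out (−0.62, adjusted p = 0.00059) and with the replicate block (adjusted p = 0.0346). Lima1, which crosslinks and stabilises filaments, read 1057, 919 and 839 with NF1 RNAi + U0126, 1310.3, 1302 and 1116 with NF1 RNAi, and 2567, 2015 and 1696 with Control RNAi. It fell by 0.73 ± 0.15 in NF1 RNAi cells (adjusted p = 0.00687) and was 1.14 ± 0.15 lower with both treatments (adjusted p = 0.000426). The difference of −0.41 with U0126 against NF1 RNAi did not pass (adjusted p = 0.113). It did with the replicate block (adjusted p = 0.0127), with only those groups in the fit (0.0429), with array weights (0.0157), without Control RNAi replicate 1 (0.0349) and without the replicate 1 arrays of all groups (0.0301).

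The remaining members act at filament ends or on monomers. Enah, an Ena/VASP protein that helps filaments elongate, was the only member that rose with NF1 RNAi, with intensities of 792, 646 and 671 with NF1 RNAi + U0126, 1135, 864.5 and 697 with NF1 RNAi, and 681, 543 and 490.1 with Control RNAi. It rose by 0.64 ± 0.18 (adjusted p = 0.0305), a call lost without Control RNAi replicate 2 or 3 or NF1 RNAi replicate 1 or 2 (adjusted p = 0.0759 to 0.0949). With U0126 against NF1 RNAi (−0.33) and with both treatments against control (0.31) it did not pass, but did with the replicate block (adjusted p = 0.0386 and 0.028), the second also without the replicate 1 arrays of all groups (0.0411). The next brightest Enah probe set passed with NF1 RNAi against control (0.37, adjusted p = 0.033) and with U0126 against NF1 RNAi (−0.39, adjusted p = 0.0458). It differed by −0.02 with both treatments against control. The dimmest Enah probe set differed by 0.01 with NF1 RNAi against control. Vasp, a relative of Enah, went the other way with NF1 RNAi, at 409, 443 and 487 with NF1 RNAi + U0126, 565, 619 and 539.7 with NF1 RNAi, and 847, 788.5 and 778 with Control RNAi. Vasp fell by 0.49 ± 0.08 in NF1 RNAi cells (adjusted p = 0.0027) and by 0.36 ± 0.08 with U0126 against NF1 RNAi (adjusted p = 0.0189, and 0.0553 to 0.0773 without NF1 RNAi replicate 2 or NF1 RNAi + U0126 replicate 1 or 2). Capg, which caps filament ends, read 2994, 2675 and 2539 with NF1 RNAi + U0126, 2306, 2336 and 2296 with NF1 RNAi, and 3604.5, 3086.5 and 3185 with Control RNAi. It fell by 0.51 ± 0.08 in NF1 RNAi cells (adjusted p = 0.00212) and by 0.27 ± 0.08 with both treatments (adjusted p = 0.0299, and 0.0772 to 0.0983 without Control RNAi replicate 1 or NF1 RNAi + U0126 replicate 2 or 3). The difference of 0.24 with U0126 against NF1 RNAi did not pass, but did with the replicate block (adjusted p = 0.0453), with array weights or quantile normalization (0.0384 each) and without Control RNAi replicate 1 (0.0459). Pfn1, profilin, which supplies monomers to growing ends, lay between 5351 and 6502 in every array, and Wdr1, which helps take filaments apart, between 3679 and 5247. Neither passed in any comparison. The probe set shared by Cfl1, cofilin, and Cfl1l1 read 7935 to 9228 with NF1 RNAi + U0126, 10514 to 10937 with NF1 RNAi and 7653 to 10369.6 with Control RNAi.

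Other probe sets of the same genes went partly the same way. The 18 members with more than 1 probe set had 41 others. For members called with NF1 RNAi against control, 8 of 17 other probe sets passed in the same direction and none in the opposite one, where 20.4% of all 31042 probe sets passed in either direction. The counts were 7 of 14 for NF1 RNAi + U0126 against NF1 RNAi (10% of all probe sets) and 10 of 28 for NF1 RNAi + U0126 against Control RNAi (28.1% of all probe sets), again with none in the opposite direction. These shares also count either direction, and the 10 of 28 is not far above its share. Among other probe sets of mean log2 intensity 7 or more, the counts were 5 of 6, 6 of 8 and 7 of 16, in the same order.

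**Figure D4:**
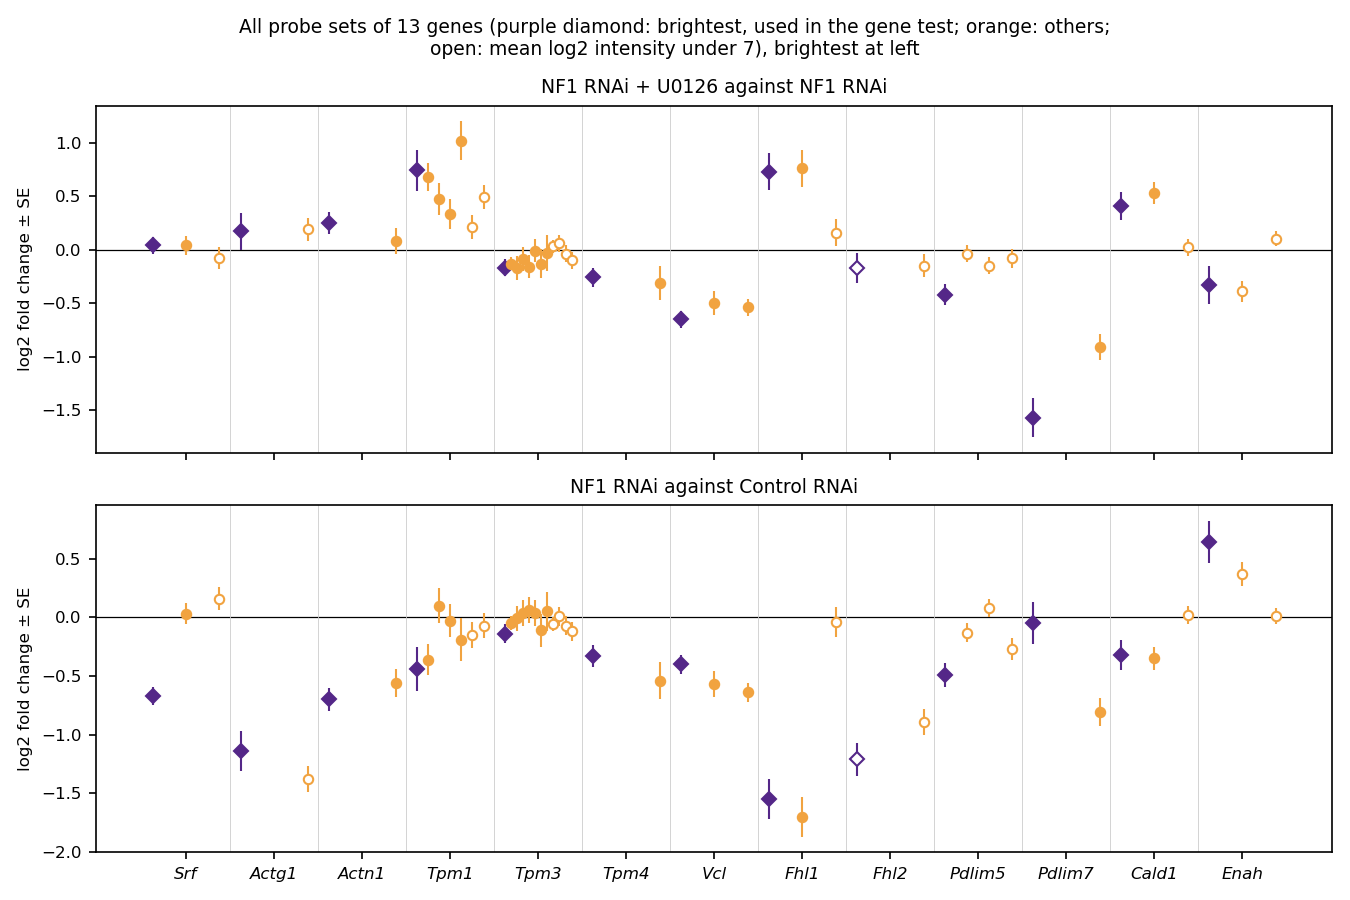
Log2 fold change ± standard error of every probe set of 13 members, for NF1 RNAi + U0126 against NF1 RNAi (top) and NF1 RNAi against Control RNAi (bottom), with purple diamonds for the brightest probe set of a gene, orange circles for its others and open symbols for a mean log2 intensity under 7. All Vcl probe sets lie below 0 in both panels, while the brightest Srf probe set lies at −0.67 for NF1 RNAi against Control RNAi with the others at 0.03 and 0.16.

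Genes that regulate the same machinery moved in both directions. Of 58 further pathway genes, 52 were measured, and with NF1 RNAi against Control RNAi 11 rose and 15 fell, with a median of 0.01, where 13% of all genes rose and 13.3% fell. Among the SRF cofactors, Elk4 read 387, 392 and 423 with NF1 RNAi + U0126, 412, 494 and 469 with NF1 RNAi, and 1166, 1082 and 1056 with Control RNAi. It fell by 1.27 ± 0.08 in NF1 RNAi cells (adjusted p = 3.16e-05) and Mrtfa, Myocd, Elk1 and Elk3 did not pass there. Mrtfa was lower with both treatments against control (−0.31, adjusted p = 0.0233). The formin gene Diaph3, whose product elongates filaments, fell by 1.70 ± 0.33 with NF1 RNAi (adjusted p = 0.00541), with 38.8, 40.5 and 41.8 with NF1 RNAi + U0126, 48.6, 43.4 and 38.1 with NF1 RNAi, and 276, 101 and 103 with Control RNAi.

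Of 12 crosslinkers and linkers, 7 fell and 1 rose with NF1 RNAi, with Ablim1 at −1.21 ± 0.23 and Lasp1 at −1.06 ± 0.07. Of 10 nucleation genes, among them those of the Arp2/3 complex, which starts branched filaments, 5 rose and 2 fell, led by Arpc1a at 1.05 ± 0.12 (adjusted p = 0.000305). Of 10 monomer and filament turnover genes, 3 rose and none fell. Over all genes, 13% rose and 13.3% fell with NF1 RNAi against Control RNAi. With U0126 against NF1 RNAi, 5 of the 52 genes rose and 9 fell, where 6.71% of all genes rose and 7.02% fell. Cap2, which binds actin monomers, rose by 0.98 ± 0.09 (adjusted p = 0.000257) and Rnd3 by 0.51 ± 0.11. Ezr fell by 0.88 ± 0.08 (adjusted p = 0.000323), Synpo by 0.86 ± 0.18, Msn by 0.77 ± 0.10 and Palld by 0.48 ± 0.10. The calls of Synpo and Palld were lost without NF1 RNAi replicate 2 (adjusted p = 0.0588 and 0.0585), that of Rnd3 without NF1 RNAi + U0126 replicate 2 (0.0658), and each also without other single arrays. With both treatments against control, 9 rose and 20 fell, where 17.9% of all genes rose and 17.6% fell. Those that fell included Diaph3 (−1.79), Synpo (−1.69), Elk4 (−1.45) and Msn (−1.36).

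**Figure D5:**
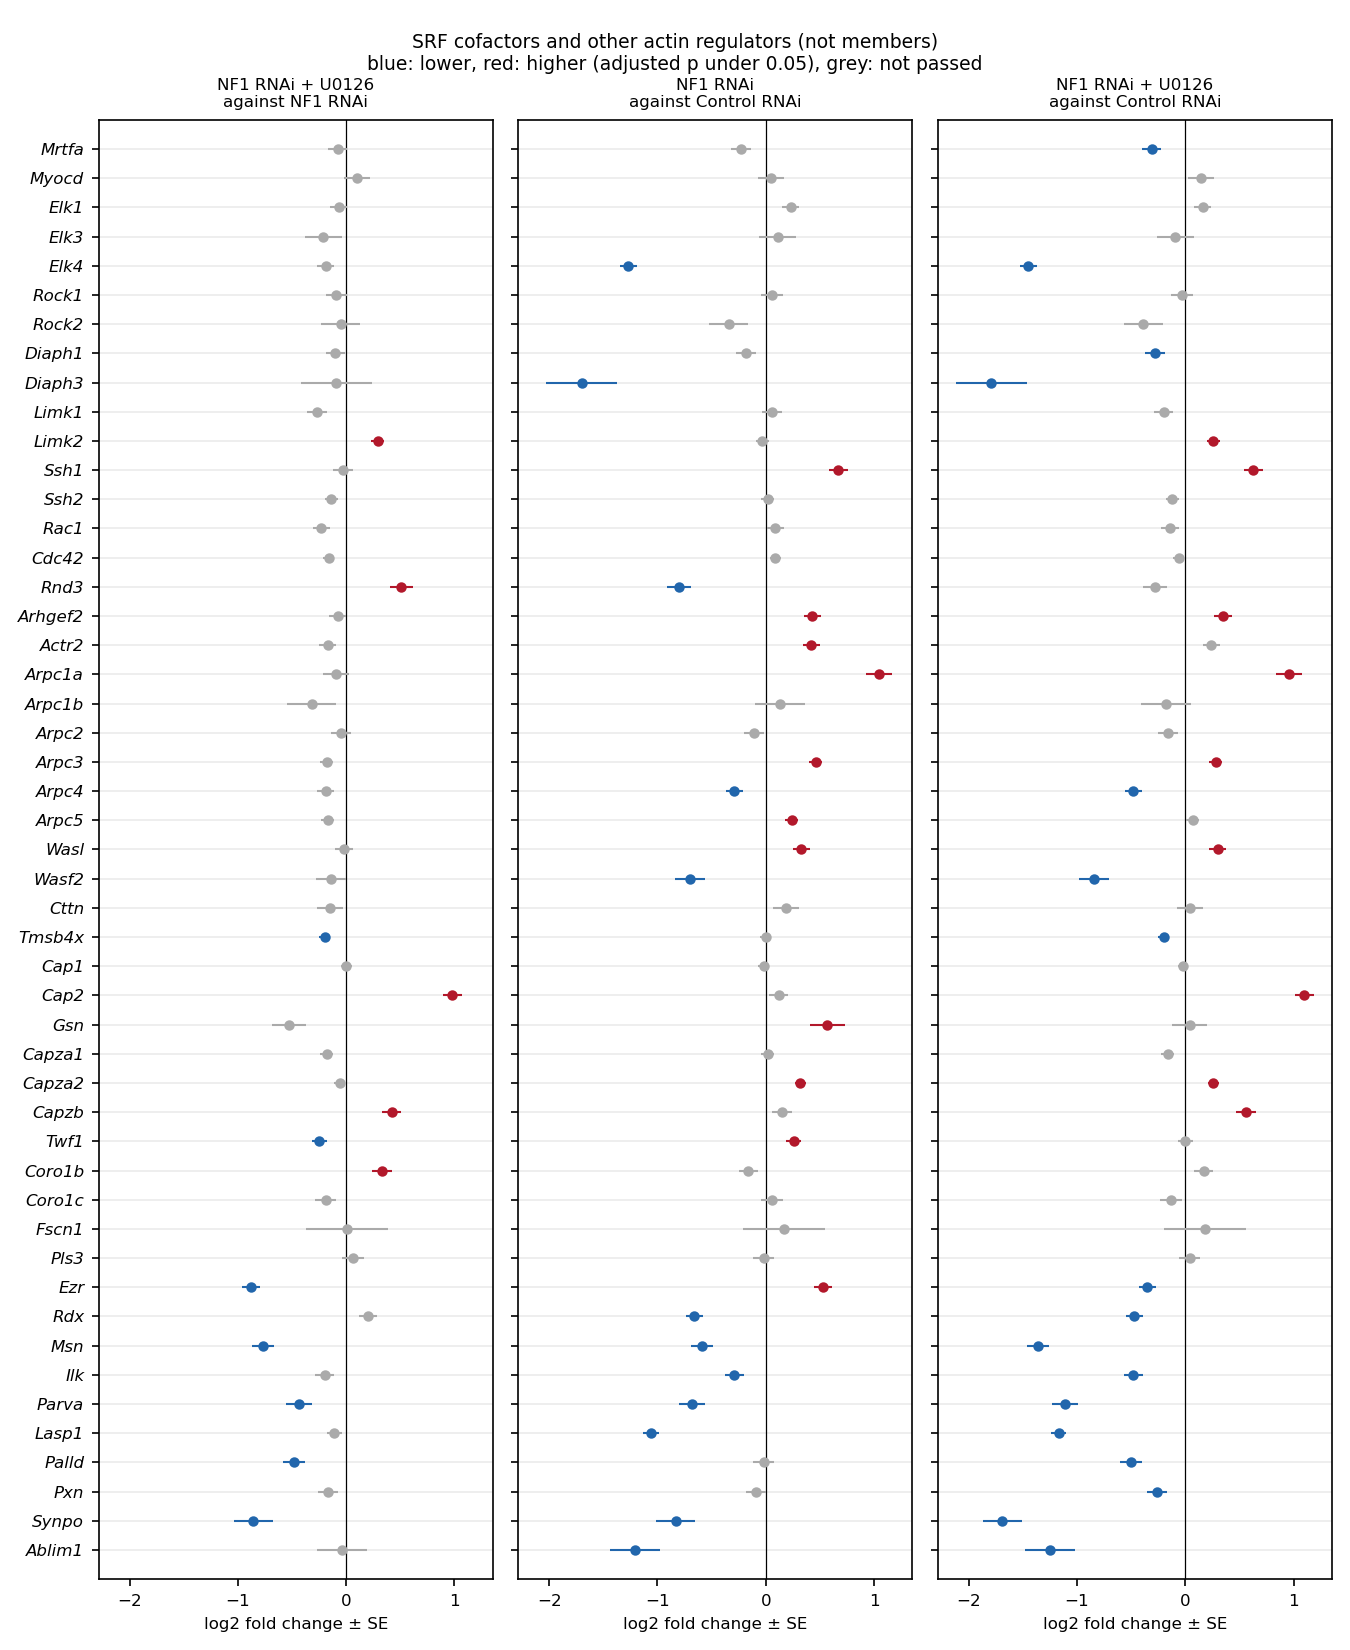
Log2 fold change ± standard error of pathway genes that are not members, in the 3 comparisons, coloured by call as lower (blue), higher (red) or not passed (grey). Diaph3 and Elk4 lie far left of 0 in both comparisons with control cells, and Arpc1a lies right of it.

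Several members are also markers of other cells, so marker lists are given beside them. Of 10 smooth muscle and mural markers, 6 were below log2 6 in every array, and Pdgfrb (−1.37) and Smtn (−1.04) fell with NF1 RNAi. With U0126 against NF1 RNAi Pdgfrb rose (1.07, adjusted p = 0.00188), and with both treatments against control Smtn fell (−1.13). Their summed intensity was 624.4 to 712.7 with NF1 RNAi + U0126, 547.7 to 620.2 with NF1 RNAi and 793.7 to 1121.9 with Control RNAi. Of 8 fibroblast markers, 3 were below log2 6 in every array, and Col3a1 (−2.06) and Mfap5 (−1.83) fell with NF1 RNAi. Col1a2 fell with U0126 against NF1 RNAi (−0.34, adjusted p = 0.0286), and Col1a1 (−0.56), Col1a2 (−0.45), Col3a1 (−1.60) and Mfap5 (−1.92) fell with both treatments against control. Their sum was 21267.7 to 29611.8 with NF1 RNAi + U0126, 29905.9 to 30853.2 with NF1 RNAi and 36831.2 to 38700.0 with Control RNAi. All 4 measured skeletal muscle markers were below log2 6 in every array, and none passed in any comparison. Of 5 leukocyte markers, 2 were below log2 6 in every array. Laptm5 rose with NF1 RNAi (0.33) and Cd68 with U0126 against NF1 RNAi (0.90), and both rose with both treatments against control (0.20 and 1.07). The 5 measured Schwann cell markers summed to 26708.0 to 28742.9 with NF1 RNAi + U0126, 32198.4 to 35088.0 with NF1 RNAi and 19047.7 to 29424.3 with Control RNAi, and 1 of them, S100b, rose with NF1 RNAi (0.79). With U0126 against NF1 RNAi S100b (−0.38, adjusted p = 0.00987) and Erbb3 (−1.08, adjusted p = 0.0122) fell, and with both treatments against control S100b rose (0.42) and Sox10 fell (−0.22). Of 6 proliferation markers, 5 fell with NF1 RNAi and 6 with both treatments against control, none passed with U0126 against NF1 RNAi, and the sums were 220.1 to 265.0 with NF1 RNAi + U0126, 238.2 to 319.9 with NF1 RNAi and 860.4 to 4909.6 with Control RNAi. The part of other cell types or of cell division in the members' differences was not tested.

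The replicates also differed in a shared way. In all 3 groups replicate 1 was the highest array for 12 of the 38 members, among them Tagln, Acta2, Myl9, Mylk, Tpm1 and Zyx, against 12.5% of all genes. Replicate 3 was the lowest in all 3 groups for 12 members, against 7.9% of all genes. Without the replicate 1 arrays of all groups, 17 members passed with NF1 RNAi + U0126 against NF1 RNAi (44.7%), with 18.4% of all genes.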

How the data were processed

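Total RNA of 9 cultures was hybridised to Affymetrix rat arrays. The deposited table holds linear intensity values that the authors made with RMA, per the submitters' processing notes. The RMA software and the probe set definition are not stated in the labels. Of 31042 probe sets that were not manufacturer's controls, 20826 were annotated to 1 gene, 436 to several and 9780 to none listed. Symbols were updated through RefSeq (GRCr8). Where a gene had several probe sets, the brightest over the 9 arrays stood for it, which gave 14213 genes. log2(intensity + 1) was fitted with limma 3.58.1 in R 4.3.3 with 1 mean per group (6 residual degrees of freedom) on the 9 arrays together, and p-values were adjusted by Benjamini-Hochberg. Adding 1 makes changes of dim probe sets look smaller. The precision is limited by the number of arrays. All value columns were mapped to a sample.

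The members and lists were chosen with earlier results of these data known. All 41 members are accounted for, every passing member is named, and array values are given for Srf, for members with large fold changes and for gene families. Up to 6 passing pathway genes are named per comparison. Some pathway genes are counted but not reported singly or plotted here. Without inhibitor-treated control cells no interaction could be fitted. Same-numbered arrays deviated together from their group means in all 9 pairs (r = 0.17 to 0.62), against r = −0.52 to 0.40 for different numbers. The labels do not say what the number marks, so the fit leaves it out and the block is an alternative. Others were a filter, median centring, quantile normalization, fitting only 2 groups, an intensity trend, array weights, mean probe sets, no pseudocount, a stricter threshold and arrays left out. The fit was tested on simulated data for NF1 RNAi against Control RNAi, with independent noise in each array and no shared replicate effect. It recovered 65.7% of log2 changes of size 0.5, 97% of size 1 and 100% of size 2. Of its calls, 6.42% fell on unchanged genes. Figures were drawn with matplotlib 3.10.9.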

Additional observations from a re-analysis of the deposited data

How the results depend on the processing

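Across 3111 single-gene values under the alternatives 54 changed sign, none of them a called value. With the replicate number as a block no call was lost, and members that passed numbered 27 with NF1 RNAi against Control RNAi, 17 with NF1 RNAi + U0126 against NF1 RNAi and 30 with NF1 RNAi + U0126 against Control RNAi, in place of 22, 10 and 24. The calls over all genes rose too, to 4547, 2790 and 5793, in place of 3734, 1951 and 5047. For NF1 RNAi + U0126 against NF1 RNAi, 18 members passed with array weights (47.4%), where 22.9% of all genes did. Without the replicate 1 arrays 17 members passed (44.7%), with 18.4% of all genes. At an adjusted p of 0.01 there were 5 (13.2%), with 6.36% of all genes. For the same comparison, leaving out single arrays gave 5 to 14 members, with 7.81% to 18.2% of all genes. Leaving out single arrays gave 18 to 23 members for NF1 RNAi against Control RNAi, with 19.6% to 26.4% of all genes. It gave 23 to 25 members for NF1 RNAi + U0126 against Control RNAi, with 28.9% to 35.8% of all genes. Over all genes, array weights gave 5980 calls for NF1 RNAi against Control RNAi and 3261 for NF1 RNAi + U0126 against NF1 RNAi, and the stricter threshold gave 2116, 904 and, for NF1 RNAi + U0126 against Control RNAi, 3303. Leaving out single arrays gave 1110 to 2587 genes for NF1 RNAi + U0126 against NF1 RNAi, with 1110 without NF1 RNAi replicate 2 and 1226 without NF1 RNAi + U0126 replicate 2. With 1 mismatch allowed, 14 members held a CArG box. The cause of these changes was not tested, apart from the stricter threshold. The estimation of array weights stopped before full convergence. Srf passed on 1 of its 3 probe sets, and the signal of Fhl2, Cnn1 and Actg2 was dim.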
